A study of Homo sapiens with 2 samples.

Results

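Readthrough genes are annotated genes whose transcripts run from one gene into the next on the same strand, and they are named by joining the symbols of the upstream and the downstream gene, here called the parents. Every gene whose symbol is a hyphenated pair of gene symbols was taken, and 93 such genes were listed in either library, of 19316 genes listed in all. They named 92 distinct upstream parents, of which 78 were listed, and 93 downstream parents, of which 83 were listed. For 8 readthrough genes, mostly of pseudogene pairs, neither parent was listed.

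RNA polymerase II normally stops some way beyond the site where a transcript is cleaved and polyadenylated. Where cleavage at the end of the upstream gene is passed over, transcription goes on into the downstream gene, and splicing can then join exons of both into 1 RNA. Such an RNA usually shares most of its exons with one parent or the other, so a short read from inside an exon can belong to either gene.

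The libraries came from the human line SNU449, labelled as liver cancer, 7 days after lentiviral delivery of an shRNA against FZD2, a frizzled receptor for Wnt ligands, or of a negative control shRNA. Both groups were the same line carrying a lentiviral shRNA, and no untransduced cells were among the samples. Poly(A) RNA was sequenced on a BGISEQ-500. Each group held 1 library, so no value has a replicate error, no difference was tested and no p-value is given.

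Expected counts, the authors' estimated reads per gene, summed to 8234592.5 in the FZD2 shRNA library (18303 genes listed) and to 8436870.04 in the control library (18336 genes listed). FZD2 itself was at 15.76 FPKM (fragments per kilobase of gene and unit of depth) with the FZD2 shRNA and 59.45 FPKM with the control shRNA. The labels call the cells liver cancer cells, whereas the growth protocol calls them prostate cancer cells. Of 10 hepatocyte markers, 2 (FGB and FGG) were measured, with a list sum of 229.87 FPKM with the FZD2 shRNA and 193.65 FPKM with the control shRNA, while ALB was at 0.05 FPKM with the FZD2 shRNA and unlisted with the control shRNA. The 8 prostate markers summed to 14.66 FPKM with FZD2 shRNA and 13.0 FPKM with control shRNA, with KLK2 and KLK3 unlisted in both. The leukocyte list (4 of 6 measured) summed to 94.23 FPKM with the FZD2 shRNA and 27.74 FPKM with the control shRNA, mostly LYZ at 71.47 FPKM with FZD2 shRNA and 12.31 FPKM with control shRNA. The fibroblast and stellate list (3 of 6) summed to 338.81 FPKM with FZD2 shRNA and 431.28 FPKM with control shRNA, and the endothelial list (1 of 5) to 2.59 FPKM with FZD2 shRNA and 0.56 FPKM with control shRNA. The part of these markers in the readthrough values was not tested.

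The sequence that sets a readthrough transcript apart from its parents is the joint between their exons. Of the 93 genes, 53 had a GENCODE 29 transcript with a junction joining an exon of the upstream parent to an exon of the downstream parent. The 8 joints below belong to genes whose values are described further on. Each shows the 15 bases before the joint in lower case and the 15 bases after it in capitals. They are read 5′ to 3′ on the gene's strand. The joint runs from within an exon of the upstream parent to within an exon of the downstream parent, not necessarily at the exon's edge. All lie in the coding part of the GENCODE transcript, and none of the 30-base runs occurs in the parents' own transcripts. The RefSeq annotation, however, classes ZFP91-CNTF and HNRNPUL2-BSCL2 as long noncoding RNA genes.
ZFP91-CNTF: agtgggacggaacggAGCATTCACCGCTGA
BCL2L2-PABPN1: agcagtgggggctggGAGCTGGAAGCTATC
ATP5MF-PTCD1: gagcgtttcaaagagGCCCTGGAGGGACAG
NME1-NME2: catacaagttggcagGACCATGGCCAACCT
TVP23C-CDRT4: acagtaaagtggctgGAATCTGAACCTGTG
ISY1-RAB43: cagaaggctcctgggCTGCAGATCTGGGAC
COMMD3-BMI1: atggaacaattacagGATTTTTTATCAAGC
HNRNPUL2-BSCL2: caatacaatcgggatGGACCCTCCATTTTC

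In GRCh38 coordinates, the intron removed at the joint was chr11:58617569-58622765 on the plus strand for ZFP91-CNTF, chr14:23308200-23322180 on the plus strand for BCL2L2-PABPN1 and chr7:99435269-99460085 on the minus strand for ATP5MF-PTCD1. It was chr17:51161273-51166826 on the plus strand for NME1-NME2, chr17:15440286-15545784 on the minus strand for TVP23C-CDRT4 and chr3:129095170-129130087 on the minus strand for ISY1-RAB43. For COMMD3-BMI1 it was chr10:22319019-22326430 on the plus strand, and for HNRNPUL2-BSCL2 chr11:62707325-62715499 on the minus strand.

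Many of the genes hold little sequence of their own outside these joints. Of 63 readthrough genes with GENCODE transcripts for themselves and for both parents on the same chromosome, 30 had no exonic base outside the parents' exons. A total of 33, including these 30, had under 1%, and the others had 1% or more, up to 65.4%. The median portion of exonic bases in exons of the upstream parent was 29.3%. The median portion in exons of the downstream parent, taken separately, was 62.8%. Exons of the downstream parent made up the larger portion in 46 genes, and those of the upstream parent in 17. All 8 genes whose joints are printed had 0% outside their parents in the GENCODE models, which for some genes are shorter than those counted. NME1-NME2 was split almost evenly, with 51.4% in NME1 exons and 48.6% in NME2 exons, whereas ATP5MF-PTCD1 had 5.78% in ATP5MF exons and 94.2% in PTCD1 exons. The highest portions outside both parents were 65.4%, in BLOC1S1-RDH5, and 58.2%, in P2RX5-TAX1BP3.

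**Figure D1:**
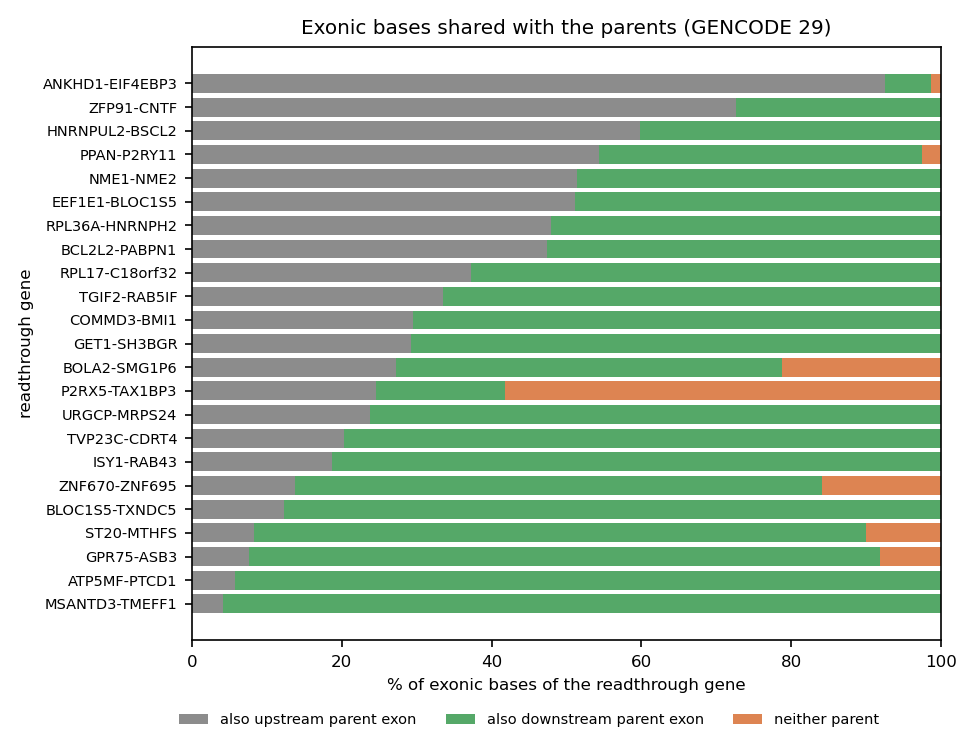
Share of the exonic bases (percent, horizontal axis) of the named readthrough genes with both parents matched that lies in exons of the upstream parent, the downstream parent or neither, from GENCODE 29 transcripts. Most bars are filled by the parents, while P2RX5-TAX1BP3 has 58.2% in neither.

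The values rest on expected counts, in which the authors' counting can divide a read among genes that overlap, so that a gene's count need not be whole. Of the 93 readthrough genes, 92 had a count that was not whole in at least 1 library, and so had all 58 of those measured, meaning those that reached 1 FPKM in either library. Among all measured genes the share was 43.3%. Every measured parent, 71 upstream and 71 downstream, also had a non-whole count. ZFP91-CNTF, ZFP91 and CNTF show the pattern: their counts with the FZD2 shRNA were 597.56, 491.44 and 0, with a sum of 1089, and with the control shRNA 4.68, 702.21 and 4.1, with a sum of 710.99. Of 84 loci, each a readthrough gene with its listed parents, 74 held a non-whole count in both libraries, and in 27 of these the sum was whole in both libraries to within 0.02.

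Readthrough genes carried a small part of the RNA. They summed to 15382.3 expected counts, or 0.187% of the library, with the FZD2 shRNA, and to 13442.8, or 0.159%, with the control shRNA. The median level of the measured readthrough genes was 4.06 FPKM with the FZD2 shRNA and 4.55 FPKM with the control shRNA. For the measured upstream parents the median was 12.8 FPKM with FZD2 shRNA and 9.53 FPKM with control shRNA. For the downstream parents it was 5 FPKM with FZD2 shRNA and 4.41 FPKM with control shRNA.

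Of the 93 genes, 63 were listed in both libraries, 10 with the FZD2 shRNA only and 20 with the control shRNA only, and 35 did not reach the level for being measured. Differences are given as log2 of FZD2 shRNA over control on FPKM + 1, and a gene is called higher or lower at 2-fold or more. Of the 58 measured readthrough genes, 15 were higher with the FZD2 shRNA (25.9%) and 14 lower (24.1%), and 29 lay within 2-fold. Among all 14377 measured genes, 15.2% were higher and 7.41% lower by this rule. Among the 6223 measured genes with a non-whole count, 29.7% were higher and 3.71% lower. The share of readthrough genes called higher was thus near that of genes with a non-whole count, and the share called lower was above both backgrounds. These shares describe the 2 libraries and were not tested.

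The readthrough genes had no common direction. Their median log2 ratio was 0.06, with quartiles of -0.72 and 0.98 and a range of -3.55 to 4.88. The median was -0.0042 over all measured genes (quartiles -0.51 and 0.63) and 0.48 over those with a non-whole count (quartiles -0.16 and 1.14). By the 95% interval of the count ratio, which covers counting error only and not the division of reads, 25 readthrough genes were higher and 22 lower, against 35.5% and 36.8% of all measured genes. All 29 genes past 2-fold had an interval on the same side. Of 34 measured protein-coding members, 8 were higher and 11 lower (median -0.27), where 10.6% and 7.3% of all measured protein-coding genes were. Of 20 annotated as long noncoding RNAs, 6 were higher and 3 lower (median 0.56), where 43.0% and 3.11% of all measured long noncoding RNA genes were. Of 4 transcribed pseudogenes, 1 was higher and 0 lower, where 36.8% and 3.48% of all measured ones were. The difference between these classes was not tested.

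Some readthrough genes were present in 1 library and unlisted in the other at counts well above the limit that a count of 0 allows, taken as 3 counts. At 30 or more counts in 1 library, 7 of the 93 readthrough genes (7.53%) were unlisted in the other, whereas 0.129% of all listed genes were. The 7 are among the 25 genes behind that 0.129%. The background also holds genes that reach 30 counts in neither library and genes with whole counts. The share among genes with a non-whole count was not computed. An unlisted gene may have had its reads given to a parent, which was not tested. TNFAIP8L2-SCNM1, BORCS7-ASMT and ST20-MTHFS were listed with the FZD2 shRNA only, and BIVM-ERCC5, BLOC1S5-TXNDC5, TVP23C-CDRT4 and GPR75-ASB3 with the control shRNA only.

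**Figure D2:**
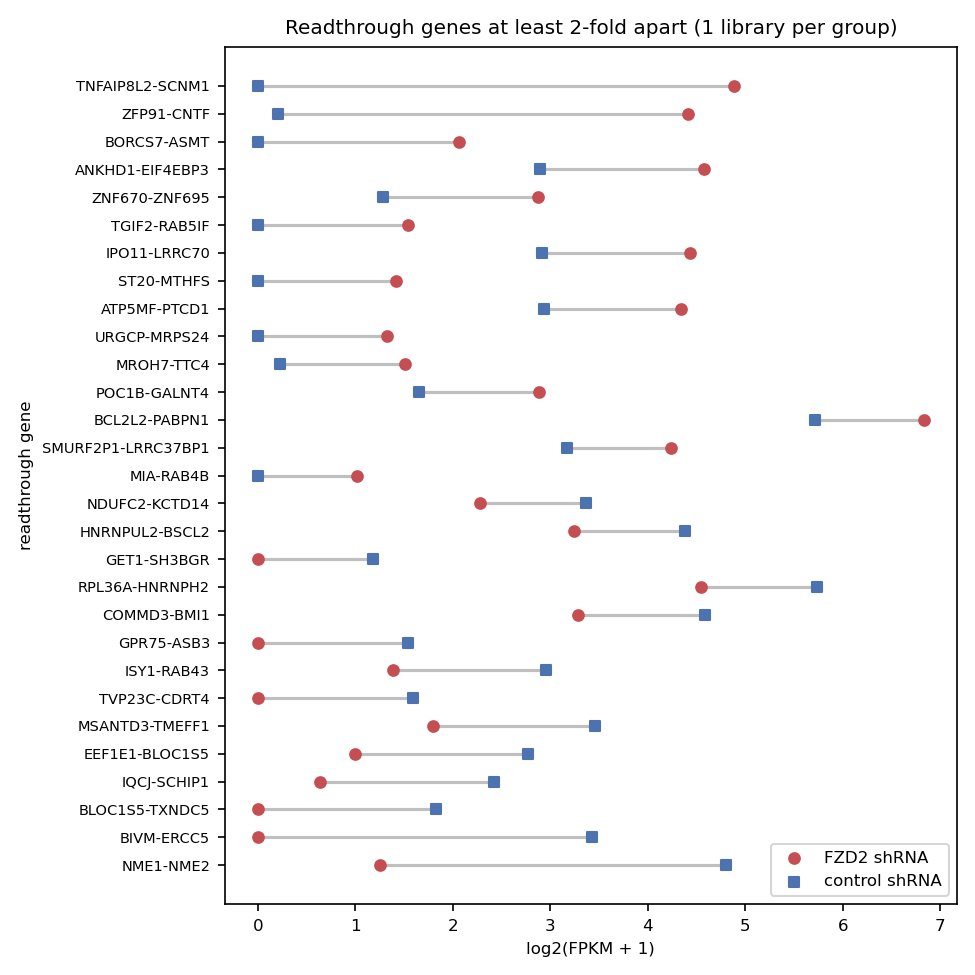
Level of the 29 readthrough genes past 2-fold, as log2(FPKM + 1), with the FZD2 shRNA (circles) and with the control shRNA (squares), 1 library each, ordered by their log2 ratio. Differences run in both directions: ZFP91-CNTF was at 20.26 FPKM with the FZD2 shRNA and 0.15 FPKM with the control shRNA, NME1-NME2 at 1.39 FPKM with FZD2 shRNA and 26.93 FPKM with control shRNA.

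TNFAIP8L2-SCNM1 (gene identifier 100534012) had the highest ratio on FPKM + 1. It had 458.47 counts and 28.52 FPKM with the FZD2 shRNA and was unlisted with the control shRNA, at least 157-fold higher by counts against the 3-count floor. Such bounds take the listed count as exact, and the counting interval, which does not, began at a log2 ratio of 6.99. Its downstream parent SCNM1, a splicing factor gene, was at 60 FPKM with the FZD2 shRNA and 32.66 FPKM with the control shRNA. TNFAIP8L2, an immune regulator gene, had 5 counts with the FZD2 shRNA and 3 with the control shRNA. SCNM1 was thus also above its control level, though within 2-fold. The 3 genes summed to 1475.12 counts with the FZD2 shRNA and 571.36 with the control shRNA, a log2 ratio of 1.40 (1.26 to 1.55).

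ZFP91-CNTF (identifier 386607) joins ZFP91, a zinc finger E3 ubiquitin ligase gene, to CNTF, which encodes a neurotrophic factor. It was at 20.26 FPKM with the FZD2 shRNA and 0.15 FPKM with the control shRNA, a count log2 ratio of 6.94 (5.71 to 8.57). ZFP91 went the other way, at 10.26 FPKM with FZD2 shRNA and 14.27 FPKM with control shRNA, and CNTF was unlisted with the FZD2 shRNA and at 0.25 FPKM with the control shRNA. The locus sum differed far less than the readthrough gene, by a log2 ratio of 0.65 (0.51 to 0.79).

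ANKHD1-EIF4EBP3 (identifier 404734) pairs ANKHD1, an ankyrin and KH domain protein gene, with EIF4EBP3, which encodes a translation repressor that binds eIF4E. It was at 22.86 FPKM with the FZD2 shRNA and 6.43 FPKM with the control shRNA, with 1597.67 counts with FZD2 shRNA and 461.95 with control shRNA. ANKHD1 was at 9.75 FPKM with FZD2 shRNA and 8.83 FPKM with control shRNA, and EIF4EBP3 was unlisted with the FZD2 shRNA and at 1.18 FPKM with the control shRNA. The locus sum was also past 2-fold, at 2120 counts with the FZD2 shRNA and 972 with the control shRNA, a log2 ratio of 1.16 (1.05 to 1.27).

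BCL2L2-PABPN1 (identifier 100529063) had the highest mean FPKM of the readthrough genes, although MICOS10-NBL1 and RPL36A-HNRNPH2 were above it with the control shRNA. BCL2L2 encodes the anti-apoptotic protein BCL-w, and PABPN1 the nuclear poly(A)-binding protein. The readthrough gene was at 112.81 FPKM with the FZD2 shRNA and 51.65 FPKM with the control shRNA, whereas BCL2L2 was at 3.67 FPKM with FZD2 shRNA and 5.51 FPKM with control shRNA and PABPN1 at 12.69 FPKM with FZD2 shRNA and 25.87 FPKM with control shRNA. Both parents were thus below their control levels, though within 2-fold, while the readthrough gene was called higher. The sum of 2424 counts with the FZD2 shRNA and 1791 with the control shRNA gave a log2 ratio of 0.47 (0.38 to 0.56).

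In 3 further loci a parent was below its control level beside a readthrough gene called higher. IPO11 and PTCD1 were past 2-fold and POC1B was not. IPO11-LRRC70 was at 20.61 FPKM with the FZD2 shRNA and 6.55 FPKM with the control shRNA, while IPO11, an importin gene, was at 0.49 FPKM with FZD2 shRNA and 2.48 FPKM with control shRNA. POC1B-GALNT4 was at 6.36 FPKM with FZD2 shRNA and 2.14 FPKM with control shRNA, while POC1B, a centriole protein gene, was at 2.99 FPKM with FZD2 shRNA and 5.75 FPKM with control shRNA. ATP5MF-PTCD1 was at 19.22 FPKM with FZD2 shRNA and 6.64 FPKM with control shRNA, while PTCD1, whose product binds mitochondrial RNA, was unlisted with the FZD2 shRNA and at 4.16 FPKM with the control shRNA. The other parent of that locus, the ATP synthase subunit gene ATP5MF, was at 835.42 FPKM with FZD2 shRNA and 613.04 FPKM with control shRNA. Locus log2 ratios were 0.77 (0.52 to 1.04) for IPO11-LRRC70, 0.47 (0.23 to 0.72) for POC1B-GALNT4 and 0.52 (0.45 to 0.58) for ATP5MF-PTCD1, all within 2-fold.

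A readthrough gene called higher stood beside a parent below its control level also at loci of low level. Of these parents only MTHFS was past 2-fold. ZNF670-ZNF695 was at 6.34 FPKM with the FZD2 shRNA and 1.43 FPKM with the control shRNA, while ZNF670 was at 0.55 FPKM with FZD2 shRNA and 2.02 FPKM with control shRNA and ZNF695 at 3.2 FPKM with FZD2 shRNA and 3.87 FPKM with control shRNA. MROH7-TTC4 was at 1.84 FPKM with FZD2 shRNA and 0.17 FPKM with control shRNA, while TTC4, an HSP90 co-chaperone gene, was at 6.06 FPKM with FZD2 shRNA and 12.2 FPKM with control shRNA. ST20-MTHFS was at 1.66 FPKM with the FZD2 shRNA and unlisted with the control shRNA, at least 10.7-fold higher by counts, while MTHFS, a folate enzyme gene, was at 0.82 FPKM with FZD2 shRNA and 4.12 FPKM with control shRNA. In all 3 loci the interval of the locus ratio spanned 1, with log2 ratios of -0.32, -0.17 and -0.09.

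The remaining higher genes were at low counts or lacked a comparable locus. TGIF2-RAB5IF (16.85 counts with the FZD2 shRNA), MIA-RAB4B (11.6) and URGCP-MRPS24 (10.08) were unlisted with the control shRNA, and their counting intervals began at log2 ratios of 2.08, 1.51 and 1.20. BORCS7-ASMT was at 3.17 FPKM with the FZD2 shRNA and unlisted with the control shRNA, beside BORCS7, a lysosome positioning gene, at 25.45 FPKM with FZD2 shRNA and 6.47 FPKM with control shRNA. It was left out of the loci because the annotation places it on chromosome 10 and ASMT on chromosome X. ASMT is thus a parent by name only, though it is counted among the 93 downstream parents and the 71 measured ones. SMURF2P1-LRRC37BP1, which had no listed parent, was at 17.87 FPKM with the FZD2 shRNA and 7.98 FPKM with the control shRNA.

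NME1-NME2 (identifier 654364) had the lowest ratio on FPKM + 1. By counts against the 3-count floor, BIVM-ERCC5 and BLOC1S5-TXNDC5, both described below, were lower still. The parents of NME1-NME2 encode closely similar nucleoside diphosphate kinases, and reads may be shared among all 3. The readthrough gene was at 1.39 FPKM with the FZD2 shRNA and 26.93 FPKM with the control shRNA, a count log2 ratio of -4.24 (-5.17 to -3.44). NME1 was at 482.31 FPKM with FZD2 shRNA and 499.86 FPKM with control shRNA and NME2 at 928.62 FPKM with FZD2 shRNA and 877.69 FPKM with control shRNA. The locus sums, 8571.01 counts with the FZD2 shRNA and 9205 with the control shRNA, gave a log2 ratio of -0.07 (-0.11 to -0.03). The readthrough gene itself had 12.63 of these counts with FZD2 shRNA and 250.55 with control shRNA.

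BIVM-ERCC5 (identifier 100533467) was unlisted with the FZD2 shRNA and had 430.74 counts and 9.77 FPKM with the control shRNA, at least 140-fold lower against the floor, with a counting interval that ended at a log2 ratio of -6.83. ERCC5, an endonuclease gene of nucleotide excision repair, was at 22.29 FPKM with the FZD2 shRNA and 6.94 FPKM with the control shRNA, and BIVM was at 19.17 FPKM with FZD2 shRNA and 18.17 FPKM with control shRNA, a difference within counting error. In counts, ERCC5 had 760 with the FZD2 shRNA and 243.04 with the control shRNA. The locus log2 ratio was 0.14 (0.03 to 0.26).

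HNRNPUL2-BSCL2 and ISY1-RAB43 had both parents above their control levels beside a readthrough gene called lower. Of these parents only BSCL2 was past 2-fold. HNRNPUL2-BSCL2 was at 8.47 FPKM with the FZD2 shRNA and 19.83 FPKM with the control shRNA, while HNRNPUL2 was at 26.76 FPKM with FZD2 shRNA and 13.57 FPKM with control shRNA and BSCL2, the seipin gene, at 18.44 FPKM with FZD2 shRNA and 3.25 FPKM with control shRNA. ISY1-RAB43 was at 1.61 FPKM with FZD2 shRNA and 6.77 FPKM with control shRNA, while the spliceosome gene ISY1 was at 16.77 FPKM with FZD2 shRNA and 11.2 FPKM with control shRNA and the GTPase gene RAB43 at 1.5 FPKM with FZD2 shRNA and 0.65 FPKM with control shRNA. Locus log2 ratios were 0.36 (0.26 to 0.47) and -0.02 (-0.17 to 0.14).

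EEF1E1-BLOC1S5 and BLOC1S5-TXNDC5 share the parent BLOC1S5, an organelle biogenesis gene, and so are not independent. EEF1E1-BLOC1S5 was at 1 FPKM with the FZD2 shRNA and 5.81 FPKM with the control shRNA. BLOC1S5-TXNDC5 was unlisted with the FZD2 shRNA and at 2.55 FPKM with the control shRNA, at least 23.8-fold lower by counts. BLOC1S5 itself was the reverse, at 5 FPKM with the FZD2 shRNA and unlisted with the control shRNA. EEF1E1, of the multisynthetase complex, was at 24.28 FPKM with FZD2 shRNA and 40.3 FPKM with control shRNA, and TXNDC5, an endoplasmic reticulum disulfide isomerase gene, at 46.57 FPKM with FZD2 shRNA and 64.19 FPKM with control shRNA.

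In 3 loci the listed parents were below their control levels together with a readthrough gene called lower. BMI1 and SCHIP1 were past 2-fold, and COMMD3, MSANTD3 and TMEFF1 were not. COMMD3-BMI1 was at 8.72 FPKM with the FZD2 shRNA and 22.97 FPKM with the control shRNA, with COMMD3 at 27.38 FPKM with FZD2 shRNA and 36.64 FPKM with control shRNA and the Polycomb gene BMI1 at 0.97 FPKM with FZD2 shRNA and 3.77 FPKM with control shRNA. Its sum of 482 counts with FZD2 shRNA and 1062 with control shRNA gave a log2 ratio of -1.10 (-1.26 to -0.95). IQCJ-SCHIP1 was at 0.55 FPKM with FZD2 shRNA and 4.37 FPKM with control shRNA and SCHIP1 at 2.92 FPKM with FZD2 shRNA and 6.99 FPKM with control shRNA, with IQCJ unlisted in both, and the locus ratio was -1.81 (-2.28 to -1.36). MSANTD3-TMEFF1 was at 2.48 FPKM with FZD2 shRNA and 10.02 FPKM with control shRNA, MSANTD3 at 58.85 FPKM with FZD2 shRNA and 92.18 FPKM with control shRNA and TMEFF1 at 0.61 FPKM with FZD2 shRNA and 1.93 FPKM with control shRNA, with a locus ratio of -0.78 (-0.90 to -0.67).

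TVP23C-CDRT4 was the only locus whose sum was past 2-fold against its readthrough gene. The readthrough gene was unlisted with the FZD2 shRNA and at 2.01 FPKM with the control shRNA, while TVP23C was at 16.82 FPKM with FZD2 shRNA and 5.3 FPKM with control shRNA and CDRT4 at 4.75 FPKM with FZD2 shRNA and 3.13 FPKM with control shRNA. The sum of 645.58 counts with the FZD2 shRNA and 276.78 with the control shRNA gave a log2 ratio of 1.26 (1.05 to 1.46).

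The last 4 genes called lower were of mixed size. RPL36A-HNRNPH2 was at 22.3 FPKM with the FZD2 shRNA and 52.23 FPKM with the control shRNA, beside the ribosomal protein gene RPL36A at 2102.27 FPKM with FZD2 shRNA and 1895.83 FPKM with control shRNA and the splicing factor gene HNRNPH2 at 0.2 FPKM with FZD2 shRNA and 4.04 FPKM with control shRNA. NDUFC2-KCTD14 was at 3.84 FPKM with FZD2 shRNA and 9.29 FPKM with control shRNA, beside NDUFC2, of respiratory complex I, at 51.28 FPKM with FZD2 shRNA and 27.66 FPKM with control shRNA. GPR75-ASB3 and GET1-SH3BGR were unlisted with the FZD2 shRNA and at 1.9 and 1.27 FPKM with the control shRNA, with counting intervals that ended at log2 ratios of -2.998 and -1.81. RPL36A, like other ribosomal protein genes, has processed copies in the genome, which may take part of its reads.

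**Figure D3:**
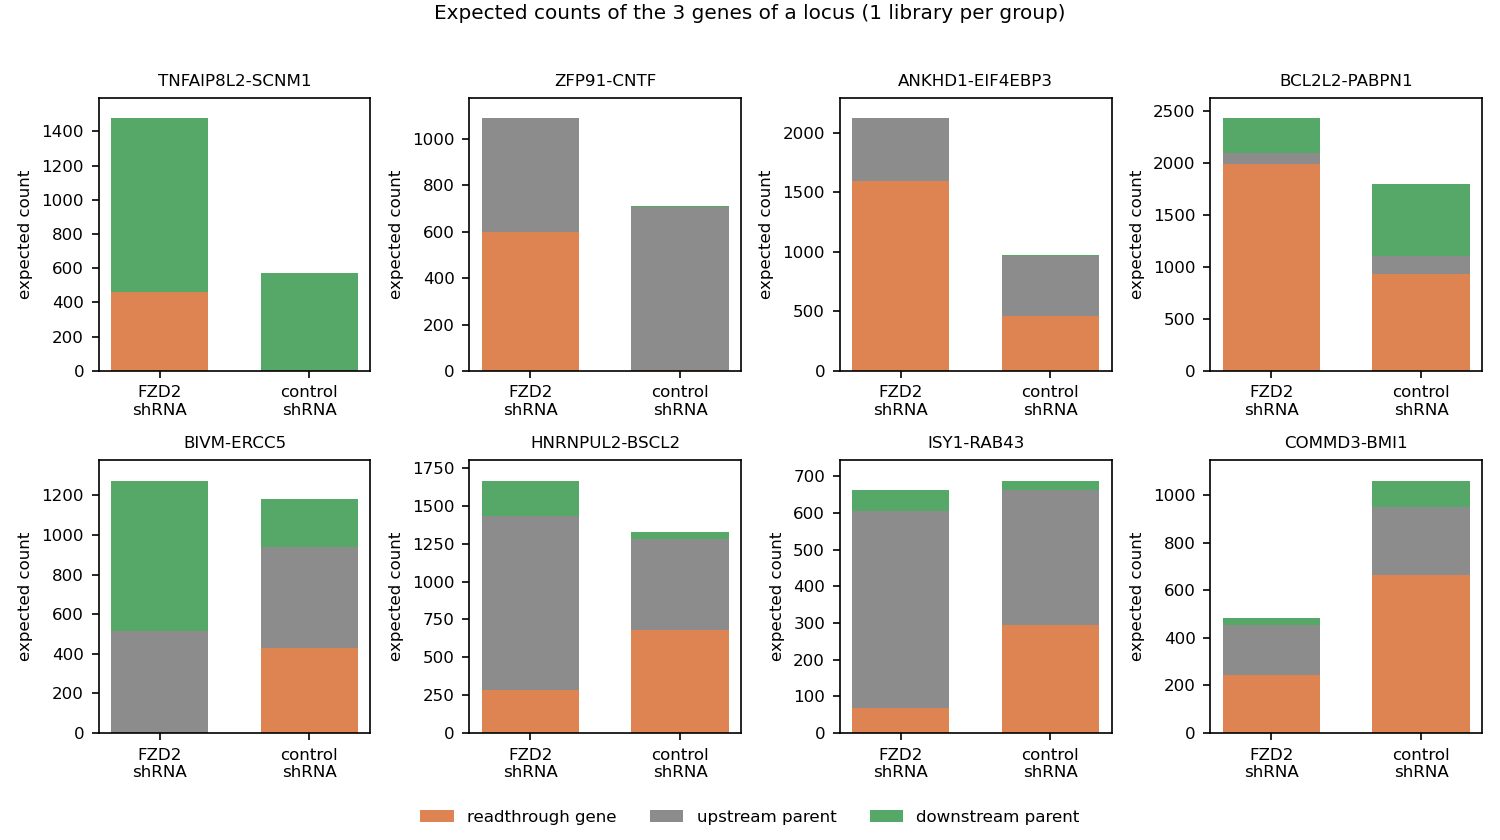
Expected counts (vertical axis, from 0) of 8 loci in the FZD2 shRNA library and the control library, stacked as readthrough gene, upstream parent and downstream parent. Bar heights differ less than the readthrough portion in loci such as ZFP91-CNTF, where that portion was 597.56 of 1089 counts with the FZD2 shRNA and 4.68 of 710.99 with the control shRNA.

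Ratios were also taken on counts summed over the readthrough gene and its parents. Of the 53 loci with a measured readthrough gene, the sum was at least 2-fold higher with the FZD2 shRNA in 4, at least 2-fold lower in 3 and within 2-fold in 46, with a median log2 ratio of 0.10 and a range of -1.81 to 1.40. Of the 27 loci whose readthrough gene was past 2-fold, 22 had a sum within 2-fold. They were 11 of the 13 with a higher readthrough gene and 11 of the 14 with a lower one. In 4 loci (ANKHD1-EIF4EBP3, IQCJ-SCHIP1, COMMD3-BMI1 and TNFAIP8L2-SCNM1) the sum was past 2-fold in the same direction. Among the 27, the sum had the opposite sign to the readthrough gene in 11. The 27 loci were picked by a readthrough gene past 2-fold, which often held a small part of the counts. That 22 of their sums lay within 2-fold was therefore largely fixed by this choice. Among all measured genes, 15.2% were higher and 7.41% lower, by FPKM + 1 rather than by counts. BLOC1S1-RDH5 and ARMCX5-GPRASP2 had sums past 2-fold while their readthrough genes were not, with locus log2 ratios of 1.20 and -1.12.

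**Figure D4:**
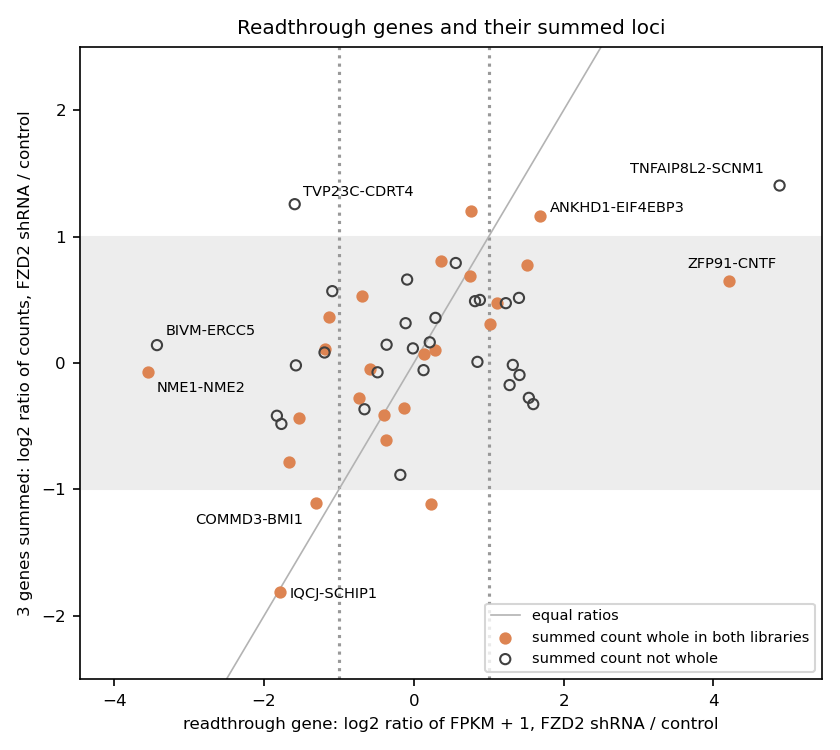
Log2 ratio of the locus sum (FZD2 shRNA over control, vertical axis) against that of the readthrough gene (horizontal axis), 1 point for each of the 53 loci with a measured readthrough gene, filled where the summed counts are whole in both libraries; the grey band and dotted lines mark 2-fold. Points spread from -3.55 to 4.88 along the horizontal axis and from -1.81 to 1.40 along the vertical one.

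The ratio of each readthrough gene was also placed against those of its parents. Among 48 loci with a measured readthrough gene and both parents listed, its log2 ratio was above both parents in 18, between them in 13 and below both in 17. If the 3 ratios of a locus were interchangeable, the readthrough gene would also lie outside its parents in most loci. These counts therefore do not set readthrough genes apart. Some of the parents were at low counts, where the pseudocount understates differences. Association between the ratios was not measured. Of 71 measured upstream parents, 8 were higher and 3 lower (median log2 ratio 0.15). Of 70 measured downstream parents, leaving out ASMT, 13 were higher and 12 lower (median -0.04). The backgrounds are the same, 15.2% higher and 7.41% lower among all measured genes, and 29.7% and 3.71% among those with a non-whole count, as all these parents have. The downstream parents ranged from -2.37 (PTCD1) to 2.58 (BLOC1S5), and the upstream parents from -1.39 (ARMCX5) to 2.58 (BLOC1S5, which is a parent in both places).

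The share of a locus's counts that went to the readthrough gene differed between the libraries in many loci, in both directions. In the 80 loci with at least 50 counts in each library, the median share was 5.47% with the FZD2 shRNA and 8.07% with the control shRNA. It was higher with the FZD2 shRNA in 31 loci and lower in 49. The exact binomial 95% intervals of the 2 shares, which cover counting error only, did not meet in 45 loci, of which 20 were higher and 25 lower. ZFP91-CNTF took 54.9% (51.9 to 57.9) of its locus with the FZD2 shRNA and 0.658% (0.229 to 1.63) with the control shRNA. The share with FZD2 shRNA was 93.8% against 51.2% with control shRNA for IPO11-LRRC70, 81.9% against a control share of 52.1% for BCL2L2-PABPN1, and 75.4% against a control share of 47.5% for ANKHD1-EIF4EBP3. In the other direction the share with FZD2 shRNA was 17.0% against 51.3% with control shRNA for HNRNPUL2-BSCL2, 10.3% against a control share of 42.7% for ISY1-RAB43, and 0% against a control share of 36.4% for BIVM-ERCC5, where the interval of the 0 reaches 0.289%.

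In ARMCX5-GPRASP2 the share differed while the readthrough gene was within 2-fold. Its readthrough gene was at 2.05 FPKM with the FZD2 shRNA and 1.61 FPKM with the control shRNA, while ARMCX5 was at 1.38 FPKM with FZD2 shRNA and 5.22 FPKM with control shRNA, and GPRASP2 was unlisted with the FZD2 shRNA and at 1.26 FPKM with the control shRNA. The readthrough share was 68.0% with the FZD2 shRNA and 24.7% with the control shRNA.

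**Figure D5:**
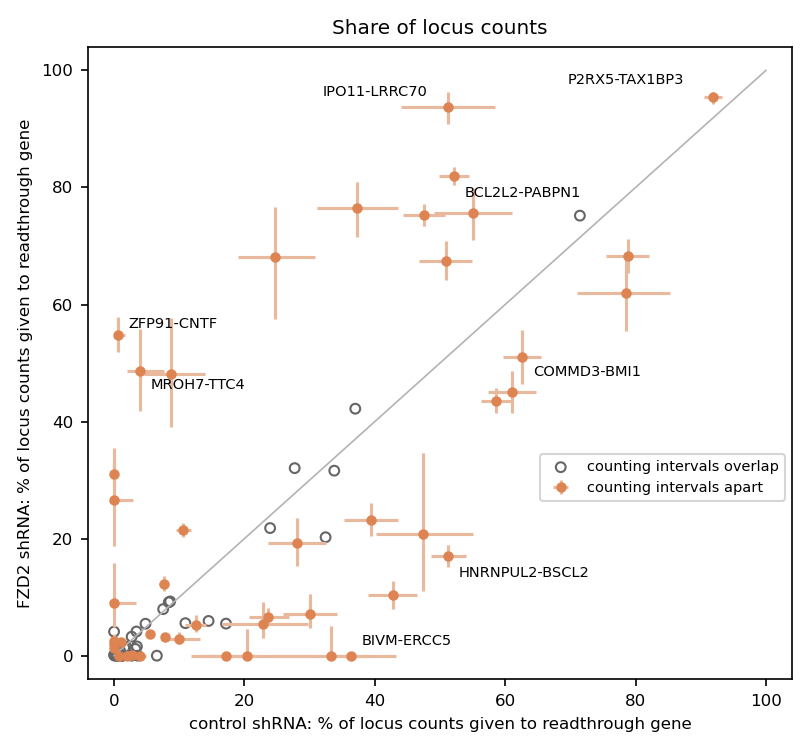
Share of the locus counts given to the readthrough gene (percent) with the FZD2 shRNA against the control shRNA, 1 point for each of the 80 loci with at least 50 counts in each library, with exact 95% counting intervals as lines where the 2 intervals do not overlap (filled points). Points lie on both sides of the line of equal shares, with ZFP91-CNTF (54.9% with FZD2 shRNA and 0.658% with control shRNA) and BIVM-ERCC5 (0% with FZD2 shRNA and 36.4% with control shRNA) far from it.

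In 9 loci the readthrough gene took over 50% of the counts in both libraries, among them P2RX5-TAX1BP3, with 95.5% with the FZD2 shRNA and 91.9% with the control shRNA. P2RX5 encodes an ATP-gated channel, and this is the locus whose readthrough gene has 58.2% of its exonic bases outside both parents. The readthrough gene was at 29.77 FPKM with FZD2 shRNA and 25.54 FPKM with control shRNA, whereas P2RX5 was at 2.31 FPKM with FZD2 shRNA and 1.85 FPKM with control shRNA and TAX1BP3 at 2.88 FPKM with FZD2 shRNA and 7.26 FPKM with control shRNA. At the other end, the readthrough share was under 10% in 49 loci with the FZD2 shRNA and 44 with the control shRNA.

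Several of the readthrough genes with the highest levels were within 2-fold. MICOS10-NBL1, joining a mitochondrial cristae gene to a BMP antagonist gene, was at 53.38 FPKM with the FZD2 shRNA and 57.66 FPKM with the control shRNA, a log2 ratio of -0.11. PPAN-P2RY11, joining a ribosome biogenesis gene to a purinergic receptor gene, was at 26.47 FPKM with FZD2 shRNA and 17.63 FPKM with control shRNA (0.56), and RPL17-C18orf32 at 23.45 FPKM with FZD2 shRNA and 35.83 FPKM with control shRNA (-0.59). BOLA2-SMG1P6 was at 23.37 FPKM with FZD2 shRNA and 30.34 FPKM with control shRNA (-0.36), and BOLA2 has a near-identical copy, so that value is uncertain.

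Genes of 3′ end cleavage, polyadenylation and transcription termination were looked at because their products set where transcripts end. All 41 were measured. None was at least 2-fold higher with the FZD2 shRNA and 3 were lower, and the median log2 ratio was -0.32, beside -0.0042 over all measured genes. By the same rule 7.41% of all measured genes were lower, so 3 of 41 is near the background. Among the 8154 measured genes with whole counts, as 32 of the 41 have, 4.19% were higher and 10.2% lower (median -0.25). NUDT21, a subunit of cleavage factor I, was at 6.64 FPKM with the FZD2 shRNA and 20.88 FPKM with the control shRNA (-1.52). CSTF2T, of the cleavage stimulation factor, was at 4.86 FPKM with FZD2 shRNA and 13.36 FPKM with control shRNA (-1.29), and SCAF8, which binds the polymerase tail and limits early termination, was at 3.34 FPKM with FZD2 shRNA and 7.97 FPKM with control shRNA (-1.05). The genes with the highest levels were within 2-fold, with SNRNP70 at 226.51 FPKM with FZD2 shRNA and 259.32 FPKM with control shRNA, SSU72 at 121.93 FPKM with FZD2 shRNA and 71.5 FPKM with control shRNA and SNRPC at 98.42 FPKM with FZD2 shRNA and 132.58 FPKM with control shRNA. PABPN1 is on this list and is also the downstream parent of BCL2L2-PABPN1. Whether these genes bear on the readthrough values was not tested.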

How the data were processed

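Expression was measured by poly(A) RNA-seq in 2 SNU449 libraries, 1 per group. Per the file headers, the deposited tables hold identifier, length, expected count and FPKM for each gene. The authors' expected counts carry no normalization, while their deposited FPKM is per gene length and library size. Bowtie2, HISAT and hg19 appear in the submitters' processing notes, without roles. Strandedness, annotation and the counting program were not given in the sources used here. Unlisted genes were taken as 0. A total of 87 listed genes had no symbol.

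Symbols came from the RefSeq gene table (GRCh38), and exons and joints from GENCODE 29 transcripts matched by RefSeq accession and gene identifier. For some genes the GENCODE models differed from those the authors counted on. ATP5MF-PTCD1 had 2491 exonic bases in GENCODE and a deposited length of 5538 in both libraries, and COMMD3-BMI1 had 1419 and 3388. For HNRNPUL2-BSCL2 the lengths were close, at 4001 and 4014. The exon portions describe the GENCODE models only. The members and lists were chosen with earlier results of these data known. The named genes were FZD2, NME1-NME2, BIVM-ERCC5 and ZFP91-CNTF, the 12 highest and 12 lowest ratios, the 12 highest levels, the 12 largest share differences, their parents, and termination genes past 2-fold or among the 3 highest. Other readthrough genes past 2-fold, and BLOC1S1-RDH5, were named after their values were seen.

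The log2 ratio used a pseudocount of 1 FPKM, which understates differences of low genes. Count intervals are exact conditional binomial 95% intervals on rounded expected counts, scaled by library totals, and shares have exact (Clopper-Pearson) intervals. Both cover counting error only and not the division of reads. They are too narrow where amplified reads are not independent molecules. A count of 0 was set against 3 counts, which are 3.64e-05% of the FZD2 shRNA library and 3.56e-05% of the control library. Counts were called non-whole beyond a tolerance of 0.001. The size rule and the counting interval were tested on simulated data. The simulated counts were drawn gene by gene with no reads shared, so that test does not cover how reads were divided. Alternatives were other pseudocounts, filters, units, scalings and size limits. A comparison of readthrough and parent proteins was planned and not run. Python 3.11.15, NumPy 2.4.6, pandas 2.3.3, SciPy 1.17.1, matplotlib 3.10.9, and R 4.3.3 with edgeR 4.0.16 (TMM factors only) were used.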

Additional observations from a re-analysis of the deposited data

How the results depend on the processing

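With 1 library per group, the spread between cultures is unknown. No paired analysis was possible because each group has 1 library, and for the same reason no library could be left out. The 15 higher and 14 lower readthrough genes became 6 and 5 with a pseudocount of 5 FPKM, 9 and 9 with a filter of 5 FPKM, 3 and 2 with a size limit of 4-fold, and 25 and 22 by a counting interval that excludes 1. Limiting the 22 loci past 2-fold with a sum within 2-fold to loci with whole sums, an alternative chosen after seeing the data, left 9 of 12 called loci, against 22 of 27, so the smaller number goes with fewer loci. The median ratio of readthrough genes was -0.11 with no filter on low values and 0.21 with TPM, the extremes of the alternatives run. Over 99 named genes, 729 values were recomputed. No gene past 2-fold changed direction, 4 values of genes near 0 did (NME1 and MICOS10-NBL1 with TPM, NME2 and RPL17 with CPM, none over 0.11 in size), 32 were no longer past 2-fold (30 with a pseudocount of 5 FPKM and 2 with TPM), and 18 came past it. With a pseudocount of 5 FPKM, of the termination genes only NUDT21 (-1.15) stayed past 2-fold, and with TPM SCAF8 was at -0.98. How the authors' counting divided reads among overlapping genes limits every readthrough value, and is not removed by depth.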
